A study of Mus musculus with 46 samples.

Results

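The genes of voltage-gated sodium and calcium channels were followed through withdrawal from chronic ethanol in the BNST, the bed nucleus of the stria terminalis. Members were all probesets that the array's annotation pairs with 1 gene symbol made of Scn and a digit, or beginning with Cacna, Cacnb or Cacng. They came to 85 of 45037 probesets and 35 of 18193 genes, with 1 to 5 probesets per gene. By subfamily there were 8 sodium channel α genes (24 probesets), 3 sodium channel β genes (6), 9 calcium channel α1 genes (19), 4 α2δ genes (12), 3 β genes (9) and 8 γ genes (15).

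RNA came from adult male C57BL/6J mice, with 1 mouse per array and 46 arrays in all. CIE mice passed through 4 cycles of chronic intermittent ethanol vapor, each of 4 days at 16 hours per day followed by 7 days without ethanol, and for each they were injected with ethanol (1.6 g/kg) together with pyrazole (1 mmol/kg), which slows the breakdown of ethanol. Ctrl mice had air in the chambers and injections of saline and pyrazole, so they too had received pyrazole and are not untreated animals. Tissue was collected at 0 h, 8 h, 72 h or 7 d of withdrawal from 6 mice per treatment and time, except for CIE at 7 d, of which 4 arrays were analysed here. Values are the deposited log2 intensities of probesets, so a difference of 1 is a doubling, and levels of different probesets were not ranked because probes differ in their response. By their hours the 0 h, 72 h and 7 d groups share a nominal clock time, and for the 8 h groups time after the session and clock time cannot be told apart.

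Voltage-gated sodium channels open during the upstroke of the action potential, and each consists of a pore-forming α subunit with β subunits that alter its gating and placement. Voltage-gated calcium channels let calcium into the cell when it depolarizes and so couple firing to transmitter release, to pacemaking and to gene expression. Their α1 subunit forms the pore, the α2δ and β subunits carry it to the membrane and tune it, and several γ proteins act mainly as partners of AMPA receptors. The BNST is a part of the extended amygdala that consists mostly of GABAergic neurons and is known for its part in anxiety and stress during alcohol withdrawal.

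Array medians lay between 6.78 and 6.83, any pair of arrays correlated at 0.981 to 0.998, and no array repeated another. Markers of GABAergic neurons were present on every array, at a mean log2 intensity of 10.22 to 10.78 over 8 genes. Markers of neighbouring regions were present as well and varied between mice, from 9.69 to 11.32 for 11 genes of striatal medium spiny neurons and from 8.25 to 9.96 for 8 genes of thalamic neurons. In such bulk tissue fewer cells of a type and less RNA per cell cannot be told apart. Within groups, the median residual SD was 0.163 for the channel probesets and 0.135 for all probesets.

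The comparison of CIE with Ctrl at each time asked which channel genes differed in early and in protracted withdrawal. A probeset counted as called where its adjusted p did not exceed 0.01 (limma, Benjamini-Hochberg over all probesets). At 0 h 1 channel probeset was called, the P/Q-type calcium channel gene Cacna1a, which was lower in CIE (1.18%), while 2.4% of all probesets were called. At 0 h 5 of the 85 had an unadjusted p under 0.05, against 16.5% of all. At 8 h no channel probeset was called by limma and 0.557% of all probesets were; 8 of the 85 had an unadjusted p under 0.05, against 10.5% of all. At 72 h 2 were called, the L-type calcium channel gene Cacna1d and the sodium channel gene Scn2a, both higher in CIE (2.35%), with 0.433% of all probesets called. At 7 d limma called 0 of all 45037 probesets, and 7 channel probesets had an unadjusted p under 0.05, against 4.94% of all.

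**Figure D1:**
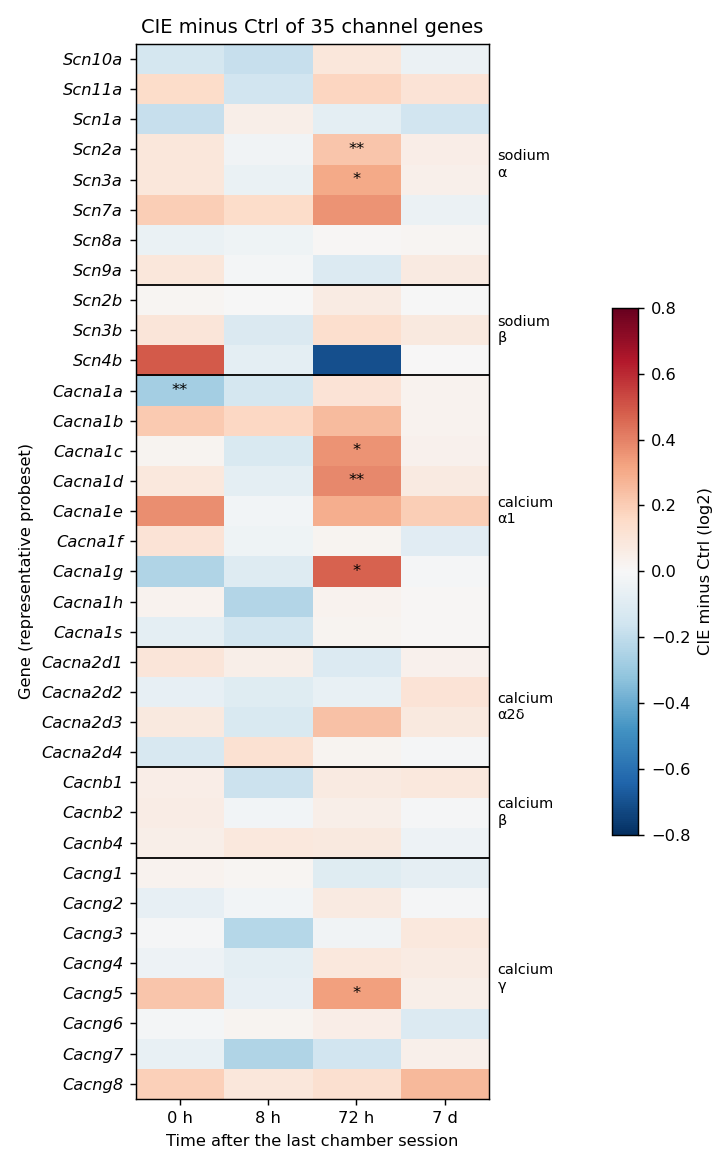
Heat map of the CIE minus Ctrl difference in log2 intensity (colour) for the probeset of highest mean of each of 35 channel genes (vertical axis, by subfamily) at 4 times of withdrawal (horizontal axis), with 1 asterisk at an adjusted p of 0.05 or less and 2 asterisks at 0.01 or less. Cacna1a carries 2 asterisks at 0 h, Cacna1d and Scn2a carry 2 at 72 h, and the 9 calcium channel α1 genes are all on the red side at 72 h.

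Directly after the last session Cacna1a, the pore of the P/Q-type channel that triggers transmitter release at many synapses, was lower in CIE. Its probeset 1430408_at ran from 8.04 to 8.29 (median 8.17) in the 6 Ctrl mice and from 7.72 to 8.06 (median 7.90) in the 6 CIE mice. The highest CIE mouse thus reached just past the lowest Ctrl mouse. The means were 8.17 ± 0.11 and 7.90 ± 0.12 (SD, n = 6 each), a log2 difference of -0.27 (SE 0.057, adjusted p = 0.00184), or 1.21-fold lower. The other 3 probesets of Cacna1a gave -0.03, -0.01 and -0.11 at 0 h, with adjusted p of 0.889, 0.971 and 0.515. Averaged over its 4 probesets the gene fell short of the threshold, at -0.11 (adjusted p = 0.142). The call was also lost with array weights (-0.24, adjusted p = 0.0111), with only the 2 groups in the fit (adjusted p = 0.066) and without CIE 0 h replicate 67 (adjusted p = 0.0109). With a mean of striatal, thalamic or GABAergic markers as a covariate the difference was -0.28, -0.26 and -0.27, past the threshold each time.

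At the later times the same probeset was not called. At 8 h Ctrl ran from 8.16 to 8.32 (median 8.22) and CIE from 7.97 to 8.15 (median 8.12), which do not overlap, but the difference of -0.14 was not called (adjusted p = 0.302). Of all probesets 0.577% had CIE wholly below Ctrl at 8 h, and Cacna1a was the single channel probeset among them. At 72 h the medians were 8.02 in Ctrl and 8.15 in CIE. At 7 d Ctrl ran from 8.04 to 8.22 and the 4 CIE mice had 8.02, 8.09, 8.20 and 8.22, so the groups overlapped at both later times. The difference at 72 h exceeded that at 0 h by 0.38 (SE 0.080, adjusted p = 0.00386), whereas the F test over all changes of the effect gave an adjusted p of 0.0105.

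The other channel genes at 0 h did not pass the threshold. Of the 35 genes 22 had a CIE mean above Ctrl, and of the 85 probesets 47 (55.3%), against 48.9% of all. The α1 genes farthest to either side beside Cacna1a were Cacna1e, the R-type pore, at 0.37 (adjusted p = 0.0609), and Cacna1g, a T-type pore, at -0.24 (adjusted p = 0.323). In the γ subfamily Cacng5, which codes for a regulator of AMPA receptors, had 0.22 (adjusted p = 0.093). Among the sodium channels Scn4b, which codes for a β subunit abundant in striatal neurons, had 0.49 (adjusted p = 0.432), Scn7a 0.20 (adjusted p = 0.51) and Scn1a -0.19 (adjusted p = 0.371). The α2δ gene Cacna2d1, whose product binds the gabapentinoid drugs, had 0.10 by its probeset of highest mean and -0.32 (adjusted p = 0.0391) by probeset 1440397_at. That probeset and Cacna1a were the 2 at an adjusted p of 0.05 or less, against 4.92% of all probesets. The mean log2 of 1440397_at was 5.62, below the 6 used in 1 alternative as a filter on low values. The 3 calcium channel β genes lay between 0.04 and 0.06. At this time the mean of striatal markers ran from 9.82 to 10.56 in Ctrl and from 10.12 to 11.11 in CIE, with 11 of 11 markers higher and 0 called, and the part of this in the value of Scn4b was not tested in the comparison.

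At 8 h the channel genes lay more often below Ctrl than above. Of the 35 genes 9 had a CIE mean above Ctrl, and of the 85 probesets 30 did (35.3%), against 49.1% of all probesets. The median difference was -0.0311 over the channel probesets and -0.00172 over all probesets. Among the α1 genes 1 of 9 was above Ctrl. The lowest was Cacna1h, a T-type pore that opens near rest, at -0.23 (adjusted p = 0.249). Cacng7 had -0.24 (adjusted p = 0.191), Scn10a -0.18 (adjusted p = 0.53), Cacnb1 -0.17 (adjusted p = 0.391) and Cacna2d3 -0.12 (adjusted p = 0.865). The mean log2 of Scn10a was 4.175, below the 6 used as a filter on low values. The largest difference of any channel probeset at 8 h was that of Cacna2d1 by probeset 1449999_a_at, at 0.76, but its residual SD of 0.614 was large and it was not called (adjusted p = 0.387).

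At 72 h the clearest difference was in Cacna1d, the pore of an L-type channel that opens at low voltage and supports pacemaking. Its probeset 1427974_s_at ran from 8.49 to 8.69 (median 8.58) in Ctrl and from 8.90 to 9.06 (median 8.95) in CIE. All 6 CIE mice lay above all 6 Ctrl mice. The difference was 0.38 (SE 0.060, 95% interval 0.26 to 0.50, adjusted p = 0.000601), or 1.3-fold, and it stayed past the threshold in all 46 fits that left out 1 mouse. The second probeset, 1428051_a_at, gave 0.10 (adjusted p = 0.766), and the mean of both gave 0.24 (adjusted p = 0.00871). The ending _s_at marks probes that match more than 1 transcript.

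Scn2a, the gene of a sodium channel of axon initial segments and unmyelinated axons, was higher at 72 h as well. Its probeset 1435933_at ran from 11.47 to 11.68 (median 11.53) in Ctrl and from 11.75 to 11.83 (median 11.76) in CIE, again without overlap. The difference was 0.22 (SE 0.047, 95% interval 0.12 to 0.31, adjusted p = 0.00901), or 1.16-fold. The 3 other probesets of Scn2a gave 0.19, 0.31 and 0.03, with adjusted p of 0.599, 0.158 and 0.978. The call for Scn2a lay close to the threshold. It was lost in 24 of the 46 fits that left out 1 mouse, namely without any of the 6 CIE mice at 72 h, without 5 of the 6 Ctrl mice at 72 h and without 13 mice of other groups, at an adjusted p of 0.0335 at most. It was also lost with only the 2 groups in the fit (adjusted p = 0.0198) and with the mean of the gene's probesets (0.19, adjusted p = 0.252).

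**Figure D2:**
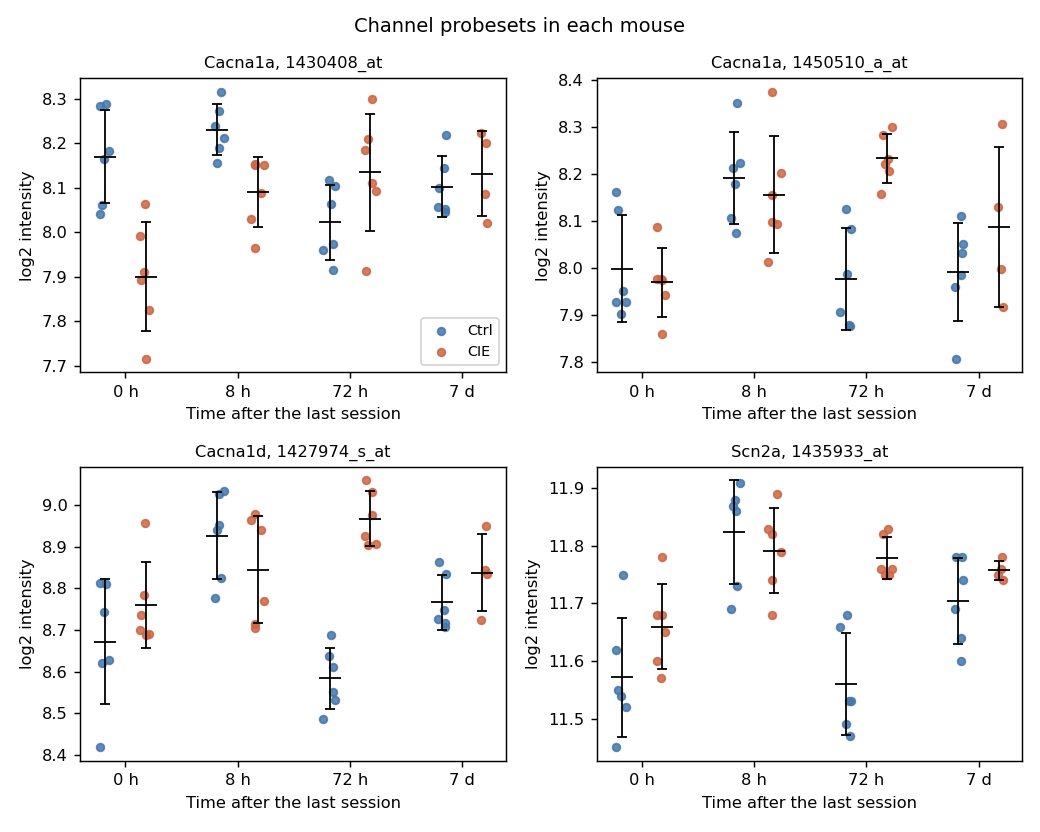
Log2 intensity (vertical axis) of 2 probesets of Cacna1a and of the called probesets of Cacna1d and Scn2a in each mouse by time of withdrawal (horizontal axis), with Ctrl in blue and CIE in orange; the horizontal mark and bars give the mean ± SD of 6 mice, or 4 for CIE at 7 d. At 72 h the CIE mice of Cacna1d (8.90 to 9.06) and Scn2a (11.75 to 11.83) lie above the Ctrl mice (8.49 to 8.69 and 11.47 to 11.68), and at 0 h the CIE mice of Cacna1a lie mostly below.

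Scn2a and Cacna1d had moved the same way at the same time, so their promoters are shown. Each of the following lines gives RefSeq sequence of build GRCm38.p6, 5′ to 3′ on the strand of the gene, from 250 bases before to 50 after each annotated start, with matches to the motifs searched in capitals.
Scn2a, chr2:65620519-65620818, plus strand: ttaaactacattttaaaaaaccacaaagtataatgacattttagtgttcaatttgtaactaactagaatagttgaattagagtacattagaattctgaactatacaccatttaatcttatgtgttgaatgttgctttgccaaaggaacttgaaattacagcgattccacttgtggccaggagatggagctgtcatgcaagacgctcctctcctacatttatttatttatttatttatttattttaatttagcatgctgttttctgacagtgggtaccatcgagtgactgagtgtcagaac
Scn2a, chr2:65668436-65668735, plus strand: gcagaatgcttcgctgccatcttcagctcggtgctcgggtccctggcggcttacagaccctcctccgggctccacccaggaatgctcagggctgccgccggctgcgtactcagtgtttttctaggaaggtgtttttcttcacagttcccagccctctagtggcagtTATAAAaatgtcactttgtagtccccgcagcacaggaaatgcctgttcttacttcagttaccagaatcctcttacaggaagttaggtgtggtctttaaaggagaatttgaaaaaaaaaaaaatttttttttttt
Cacna1d, chr14:30491107-30491406, minus strand: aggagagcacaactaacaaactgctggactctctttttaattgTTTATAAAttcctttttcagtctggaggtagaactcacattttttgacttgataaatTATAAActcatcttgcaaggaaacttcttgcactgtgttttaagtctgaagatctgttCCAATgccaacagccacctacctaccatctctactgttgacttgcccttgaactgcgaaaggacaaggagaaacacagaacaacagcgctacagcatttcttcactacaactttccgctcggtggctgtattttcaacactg
Cacna1d, chr14:30353437-30353736, minus strand: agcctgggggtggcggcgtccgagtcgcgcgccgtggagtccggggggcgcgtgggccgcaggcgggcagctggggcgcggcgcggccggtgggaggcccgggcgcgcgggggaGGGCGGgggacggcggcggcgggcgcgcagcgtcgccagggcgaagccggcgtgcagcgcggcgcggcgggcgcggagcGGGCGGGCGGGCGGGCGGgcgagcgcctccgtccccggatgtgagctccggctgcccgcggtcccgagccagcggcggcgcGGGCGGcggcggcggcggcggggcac
The array does not tell which of the starts was in use. Motifs were searched by their letters on both strands, at any distance from the start, so a match need not lie where the motif acts. Overlapping matches were counted, also where 1 stretch matches on both strands. The TATA box TATAAA was found 3 times in the first Cacna1d window, where TTTATAAA holds an overlapping pair, and 1 time in the second Scn2a window, and in 13.6% of all 32851 promoter entries. The GC box GGGCGG was found 6 times in the second Cacna1d window, with 4 matches running on in 1 stretch, and in 35.7% of all. The CCAAT box CCAAT was found 1 time in the first Cacna1d window and in 37.4% of all. None of the 4 windows held the cyclic AMP response element TGACGTCA (1.79% of all) or its shorter form TGACG, which lies within it (20.8%), or the E-box CACGTG (7.15%). The windows differed widely in base composition, with 33% and 47.7% G and C for Scn2a, 40.3% and 87.3% for Cacna1d, and a median of 52.7% over all entries. The second Cacna1d window held 63 CpG sites, against a median of 7. Of the 35 channel genes 27 had an entry, Cacna1a not among them.

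The channel genes as a whole lay more often above Ctrl at 72 h, in counts that include Cacna1d and Scn2a. Of the 85 probesets 61 had a CIE mean above Ctrl (71.8%, against 49.8% of all probesets), as had 27 of the 35 genes. The median difference was 0.0555 over the channel probesets and -0.000419 over all. An unadjusted p under 0.05 was reached by 15 probesets that were higher (17.6%, against 6.6% of all) and by 3 that were lower (3.53%, against 5.98%). At an adjusted p of 0.05 or less there were 9 channel probesets, all higher in CIE, or 10.6% of them, while 0.975% of all probesets were higher at that level. In 8 channel probesets (9.41%) the CIE mice lay wholly above the Ctrl mice, against 1.66% of all probesets, and in 1 wholly below, against 1.24% of all.

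The α1 subunits of calcium channels held 6 of these 8 probesets. By the probeset of highest mean all 9 α1 genes had a higher CIE mean, with a median of 0.25. They include Cacna1s, whose mean log2 of 4.56 lay below the 6 used as a filter on low values. Of the 19 α1 probesets 18 had a higher CIE mean. Cacna1g, known for burst firing of thalamic neurons, ran from 8.02 to 8.31 in Ctrl and from 8.54 to 8.79 in CIE. Its difference of 0.47 (adjusted p = 0.0347), or 1.39-fold, was the largest of the subfamily. Cacna1c, the other main L-type pore of the brain, had 0.30 (adjusted p = 0.015) by probeset 1421297_a_at, from 7.34 to 7.54 in Ctrl and from 7.59 to 7.82 in CIE. Its other probeset gave 0.36 (adjusted p = 0.0402). Cacna1b, the pore of the N-type channel of nerve endings, had 0.25 (adjusted p = 0.0396) by probeset 1436602_x_at, from 9.70 to 9.96 against 9.97 to 10.19. The 3 other probesets of Cacna1b gave 0.25, 0.21 and 0.09, with adjusted p of 0.507, 0.184 and 0.72. Cacna1e had 0.29 (adjusted p = 0.25), from 10.22 to 10.51 against 10.57 to 10.82. Its other probeset, 1421692_at, went the other way, at -0.19 (adjusted p = 0.365). Cacna1a by probeset 1450510_a_at ran from 7.88 to 8.13 in Ctrl and from 8.16 to 8.30 in CIE, a difference of 0.26 (adjusted p = 0.0211). Its other probesets gave less, 0.11 for 1430408_at (adjusted p = 0.414), 0.10 for 1459996_at (0.597) and 0.06 for 1444455_at (0.859). In each probeset given here with its ranges the groups were apart, and none of them passed the threshold.

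The sodium channel genes were less uniform at 72 h. Scn3a, most abundant early in brain development, had 0.30 (adjusted p = 0.0328), from 9.68 to 9.95 in Ctrl and from 10.04 to 10.21 in CIE. Its other probeset, 1421705_at, had a low mean log2 of 3.70 and gave -0.06 (adjusted p = 0.838). Scn7a, whose product responds to sodium concentration rather than voltage, had 0.36 (adjusted p = 0.173), and Scn8a, whose channel drives repetitive firing, had 0.01 (adjusted p = 0.978). Scn1a, expressed strongly in fast-spiking inhibitory neurons, had -0.08 (adjusted p = 0.861) and Scn9a -0.11 (adjusted p = 0.801). Of the β genes Scn4b had the lowest value of any channel probeset, -0.70 (adjusted p = 0.258), from 10.09 to 10.75 in Ctrl and from 9.26 to 10.02 in CIE. This was the probeset in which all CIE mice lay below the Ctrl mice.

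The auxiliary subunits of calcium channels were mixed at 72 h. The γ gene with the largest difference was Cacng5, at 0.33 (adjusted p = 0.0179), from 8.63 to 8.86 in Ctrl and from 8.84 to 9.12 in CIE, which overlap slightly. Cacng7, another partner of AMPA receptors, had -0.15 (adjusted p = 0.494). The 3 β genes lay between 0.04 and 0.08, and the α2δ genes between -0.11 for Cacna2d1 and 0.23 for Cacna2d3 (adjusted p = 0.702 and 0.511).

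**Figure D3:**
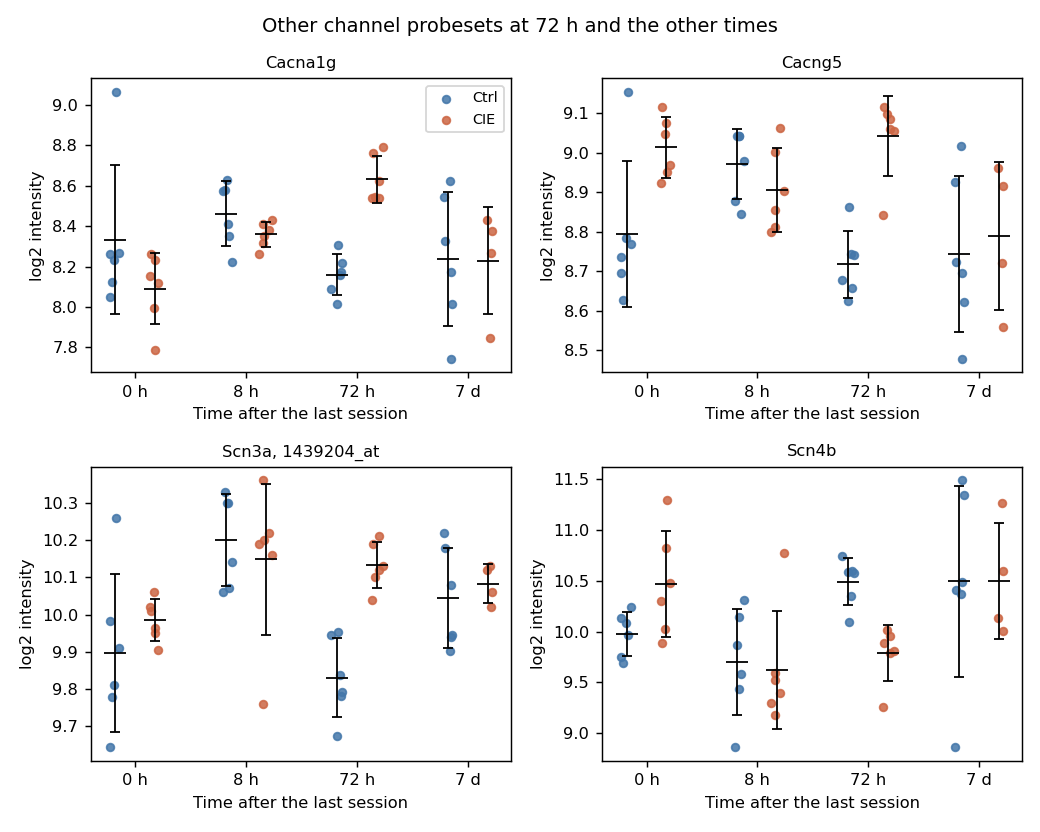
Log2 intensity (vertical axis) of Cacna1g, Cacng5, Scn3a and Scn4b in each mouse by time of withdrawal (horizontal axis), with Ctrl in blue and CIE in orange and the mean ± SD of 6 mice, or 4 for CIE at 7 d. At 72 h the CIE mice lie above the Ctrl mice for Cacna1g (8.54 to 8.79 against 8.02 to 8.31) and Scn3a (10.04 to 10.21 against 9.68 to 9.95), and below them for Scn4b (9.26 to 10.02 against 10.09 to 10.75).

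Markers of cell types differed between the groups at 72 h in the same mice. GABAergic markers were higher in CIE for 8 of 8 genes (0 called), and their mean ran from 10.26 to 10.49 in Ctrl and from 10.66 to 10.78 in CIE. The largest differences among them were those of Dlx1 (0.61), Dlx6 (0.46) and Dlx5 (0.40), so this mean weighs these genes most. Gad1 and Slc32a1 had 0.13 and 0.15. Thalamic markers were higher for 7 of 8 (0 called), with a mean of 8.25 to 8.58 in Ctrl and 8.68 to 9.96 in CIE. The exception was Slc17a6, at -0.39 (adjusted p = 0.185). The largest differences in that list were those of Synpo2 (2.12), Ramp3 (1.79) and Prkcd (1.41), so its mean weighs these genes most. Of 10 general neuronal markers 7 were higher and 1 was called, the dendritic protein gene Map2. All 9 oligodendrocyte markers were lower, from 12.11 to 12.18 in Ctrl and from 11.83 to 11.98 in CIE with Opalin called, and so were all 10 microglial markers, from 10.02 to 10.14 and from 9.54 to 9.87 with C1qb and C1qc called. Striatal markers were lower for 11 of 11 (0 called), with a mean of 10.18 to 10.71 in Ctrl and 10.03 to 10.53 in CIE. Of the other lists the number higher was 2 of 10 for astrocytes (S100b called lower), 0 of 7 for oligodendrocyte precursors (Gpr17 called lower), 3 of 8 for endothelial cells, 3 of 6 for choroid plexus and ependyma and 3 of 6 for cortical and hippocampal excitatory neurons.

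The called differences at 72 h depended on how these markers were treated. With the mean of the GABAergic markers as a covariate, chosen after seeing the data, Cacna1d had 0.26 (adjusted p = 0.745) and Scn2a 0.13 (adjusted p = 0.87). With the mean of the thalamic markers, chosen likewise, they had 0.40 (adjusted p = 0.0618) and 0.22 (adjusted p = 0.188). Under either covariate limma called 0 of all 45037 probesets at 72 h, with 2581 and 3285 of all at an unadjusted p under 0.05, and 6 and 15 of the channel probesets. Since neither mean overlapped between the groups at 72 h, treatment and these markers cannot be told apart there. The same holds for the means of oligodendrocyte and microglial markers given above. It also holds for oligodendrocyte precursors, from 9.59 to 9.73 in Ctrl and from 9.40 to 9.49 in CIE. No covariate was fitted for these glial lists. With the striatal markers Cacna1d had 0.40 (adjusted p = 0.00013) and Scn2a 0.24 (adjusted p = 0.000902).

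The level in Ctrl mice moved too. For Cacna1d the Ctrl mean was 8.67 at 0 h, 8.93 at 8 h, 8.58 at 72 h and 8.77 at 7 d, and the CIE mean 8.76, 8.85, 8.97 and 8.84. For Scn2a the Ctrl means were 11.57, 11.82, 11.56 and 11.70, and the CIE means 11.66, 11.79, 11.78 and 11.76. The Ctrl mice at 72 h thus lay 0.34 below those at 8 h for Cacna1d (adjusted p = 0.000487) and 0.26 below for Scn2a (adjusted p = 0.000558). In CIE the corresponding steps from 8 h to 72 h were 0.12 (adjusted p = 0.417) and -0.01 (adjusted p = 0.964). Between 0 h and 72 h, which share a nominal clock time, the Ctrl step was -0.09 for Cacna1d (adjusted p = 0.564) and -0.01 for Scn2a (adjusted p = 0.949). The CIE step over that interval was 0.21 (adjusted p = 0.0172) and 0.12 (adjusted p = 0.0903). At 7 d the 4 CIE mice had 8.72, 8.84, 8.84 and 8.95 for Cacna1d and 11.74, 11.75, 11.76 and 11.78 for Scn2a, overlapping Ctrl (8.71 to 8.86 and 11.60 to 11.78).

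Over all 4 times together the F test called 3 channel probesets, Cacna1d (adjusted p = 0.000313), Cacna1a (adjusted p = 0.00313) and Cacng5 (adjusted p = 0.00943), with 2.84% of all probesets called. The Cacng5 call was lost in 33 of 46 fits that left out 1 mouse (adjusted p up to 0.021). A change of the CIE effect between times was called for 1 channel probeset, that of Cacna1d (adjusted p = 0.00435), with 1.04% of all called. Its effect at 72 h exceeded the effect at 8 h by 0.46 (SE 0.085, adjusted p = 0.0014), and its difference from the effect at 0 h was 0.30 (SE 0.085, adjusted p = 0.0492). The call was lost without Ctrl 72 h replicates 16, 44 or 52 and without CIE 72 h replicates 63 or 71, at an adjusted p of 0.0118 at most. With the thalamic and with the GABAergic covariate limma called 0 channel probesets for a change. At an unadjusted p under 0.05 there were 10 and 7 of them, counts that were not compared with all probesets. For Scn2a the change of the effect was not called (adjusted p = 0.115), and the effect at 72 h minus that at 8 h was 0.25 (SE 0.067, adjusted p = 0.0422).

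At 7 d no channel gene was called, and 48 of the 85 probesets had a CIE mean above Ctrl (56.5%, against 53.9% of all). The single probeset higher at an unadjusted p under 0.05 was 1459579_at of Cacng8, the gene of an AMPA receptor partner, which ran from 6.52 to 6.91 in Ctrl and from 6.98 to 7.01 in CIE. The groups did not overlap (0.544% of all probesets had CIE wholly above Ctrl), and the difference was 0.26 (adjusted p = 0.799). The 6 probesets lower at an unadjusted p under 0.05 included Scn1a 1450120_at at -0.79 (adjusted p = 0.688), Scn1a 1441728_at at -0.91 (adjusted p = 0.847) and Cacnb4 1452089_at at -0.68 (adjusted p = 0.847). The probesets of highest mean of Scn1a and Cacnb4 had -0.15 and -0.04 at this time.

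Across the 4 Ctrl groups the F test called 12 channel probesets, or 14.1%, against 10.9% of all probesets, in mice that had no ethanol. Across the 4 CIE groups it called 5, against 7.76% of all. By their Ctrl means 6 of the 12 calls were highest at 8 h, Scn2a 1435933_at, Scn3a, Scn3b, Cacna1d, Cacng8 and Cacna2d1 1440397_at, the last of them level with 72 h (5.837 and 5.836). For Scn3a the step from 0 h to 8 h was 0.30 (adjusted p = 0.0224) and that from 8 h to 72 h -0.37 (adjusted p = 0.0038). Scn3b, the gene of a β subunit, fell by 0.23 from 8 h to 7 d (adjusted p = 0.00308), and Cacng8 fell by 0.37 (adjusted p = 0.000659). The Ctrl F test was lost for Scn3b without Ctrl 8 h replicates 8 or 42 (adjusted p up to 0.0125) and for Cacng8 without Ctrl 8 h replicates 8, 42 or 58 (up to 0.0144).

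The opposite pattern, lowest at 8 h and highest at 7 d, was seen in the other 6. From 8 h to 7 d Ctrl mice rose by 1.23 in Scn1a 1450120_at (adjusted p = 7.19e-05), by 1.60 in Scn1a 1441728_at (adjusted p = 0.000166) and by 0.71 in Scn2a 1445259_at (adjusted p = 0.000181). The step was 1.45 in Cacnb4 1452089_at (adjusted p = 1.4e-05), 1.59 in Cacna2d1 1449999_a_at (adjusted p = 0.000615) and 0.44 in Scn8a 1439889_at (adjusted p = 3.58e-07). For Cacnb4, the gene of a cytoplasmic β subunit, Ctrl mice ran from 7.77 to 8.63 at 8 h and from 9.29 to 10.16 at 7 d, so that these groups were far apart. Of these 6, Scn8a 1439889_at was called in CIE as well (adjusted p = 0.00125), with 0.31 from 8 h to 7 d, and so was Cacnb4 1452089_at, at the threshold (adjusted p = 0.01, lost in 34 of 46 fits without 1 mouse). The Ctrl call of Cacna2d1 1449999_a_at was lost without Ctrl 8 h replicates 8, 50 or 58 and without Ctrl 7 d replicates 28 or 36 (adjusted p up to 0.0146). Cacna2d1 1440397_at fell by 0.36 from 8 h to 7 d (adjusted p = 0.00443) in Ctrl and rose by 0.41 from 0 h to 72 h in CIE (adjusted p = 0.00242). Its Ctrl F test was lost in 8 of 46 fits without 1 mouse, all of them of Ctrl 8 h, 72 h or 7 d (adjusted p up to 0.024).

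Other probesets of the same genes differed in whether they followed that second pattern. Cacna2d1 1441608_at rose by 0.76 from 8 h to 7 d (adjusted p = 0.00297), although its Ctrl F test was not called (adjusted p = 0.0136), and Cacna2d1 1425861_x_at had a step of 0.56 (adjusted p = 0.019). For Scn1a 1450121_at the Ctrl means were 11.18 at 8 h and 11.15 at 7 d, for Cacnb4 1436912_at 10.97 and 11.11, and for Cacna2d1 1433643_at 10.73 and 10.69, and none of these 3 was called in the Ctrl time course (adjusted p = 0.337, 0.369 and 0.552). Probesets of 1 gene read different stretches of its transcripts. Some of these probesets also varied with the whole array. The leading axis of variation between mice of 1 group held 20.7% of the residual variance of all probesets, and within groups the correlation with it was 0.88 for Cacnb4 1452089_at, 0.75 for Cacna2d1 1449999_a_at, 0.71 for Scn1a 1450120_at and 0.70 for Scn2a 1445259_at. For the pattern's other probesets it was 0.39 for Scn1a 1441728_at and 0.12 for Scn8a 1439889_at. It was 0.745 for Cacna2d1 1441608_at and 0.728 for Cacna2d1 1425861_x_at. For Cacnb4 1436912_at it was -0.05 and for Scn1a 1450121_at -0.33. Probesets not called in the Ctrl time course also reached 0.87 (Cacna1b 1439612_at), 0.80 (Scn2a 1427280_at) and 0.77 (Scn2a 1427281_at). Their adjusted p in that F test was 0.0582, 0.0336 and 0.016. Their Ctrl means were likewise highest at 7 d, but lowest at 72 h. Whether that axis accounts for the time pattern was not tested.

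**Figure D4:**
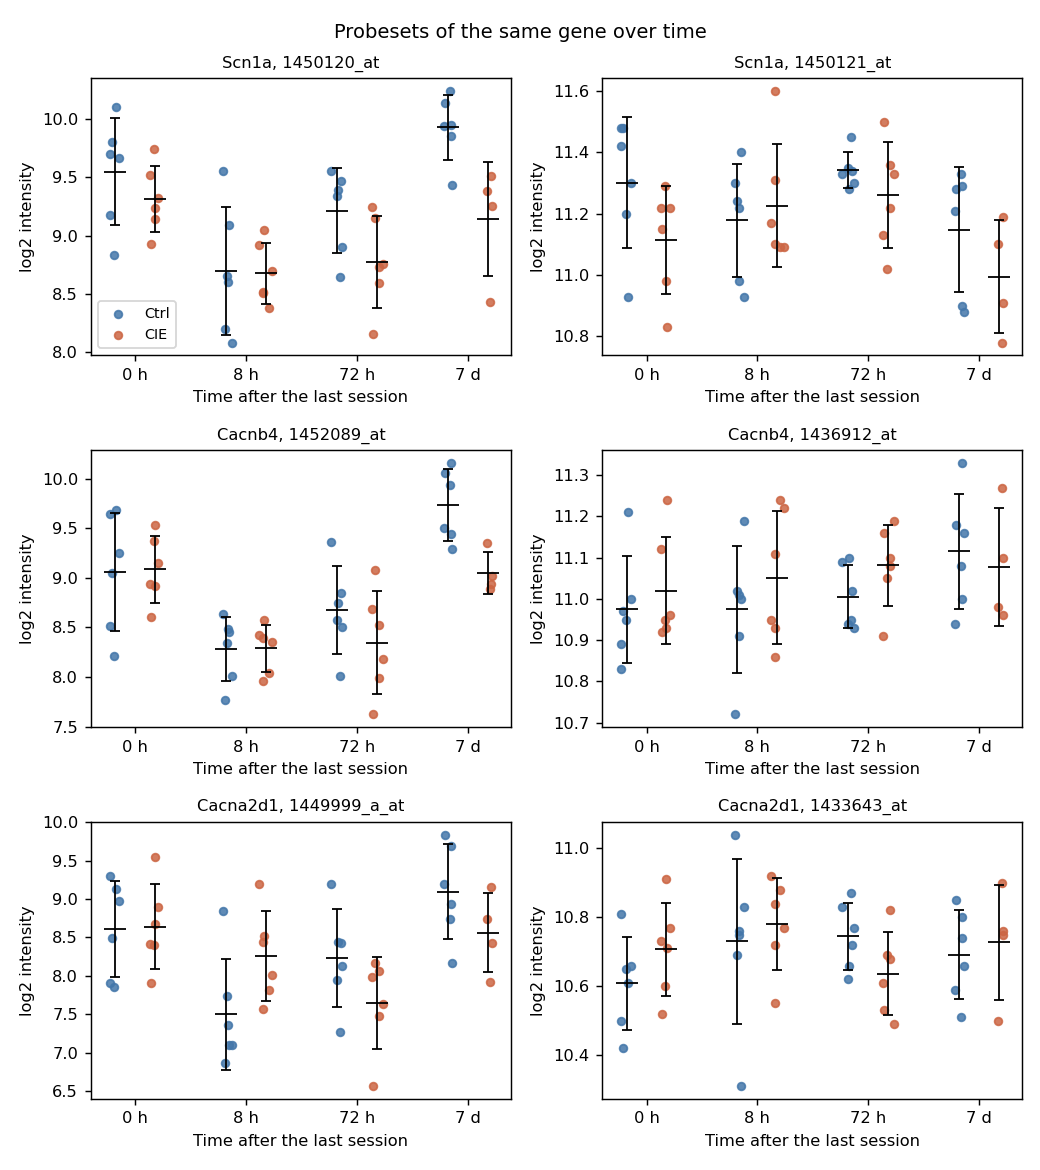
Log2 intensity (vertical axis) in each mouse of 2 probesets each of Scn1a, Cacnb4 and Cacna2d1 by time of withdrawal (horizontal axis), with Ctrl in blue and CIE in orange and the mean ± SD of 6 mice, or 4 for CIE at 7 d. The left probesets are low at 8 h and high at 7 d in Ctrl (Cacnb4 1452089_at from 8.28 to 9.73), while the right ones stay nearly level (Cacnb4 1436912_at from 10.97 to 11.11). The right panels have a narrower vertical scale.

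The CIE time course called 3 further probesets. Cacna1g rose by 0.54 from 0 h to 72 h in CIE (adjusted p = 0.00205), while the step in Ctrl was -0.17 (adjusted p = 0.582), and its F test lay just inside the threshold (adjusted p = 0.00977, lost in 35 of 46 fits without 1 mouse). Cacna1a 1430408_at rose by 0.24 over the same interval (adjusted p = 0.00377), against -0.15 in Ctrl (adjusted p = 0.293). Its F test (adjusted p = 0.00681) was lost without 8 mice, at most 0.0455 without CIE 0 h replicate 67. For Cacna2d1 1440397_at the F test (adjusted p = 0.00932) was lost in 25 of 46 such fits.

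Within groups, relations between channel genes and with marker means were computed over all 46 mice, with group means removed and p from 100000 permutations within groups, for 16 relations chosen after values were seen. Cacna1d and Scn2a went together (r = 0.66, rho = 0.58, adjusted permutation p = 6.4e-05 and 0.000256; r = 0.63 without the 2 mice farthest out). Scn4b followed the mean of the striatal markers closely, at r = 0.92 and rho = 0.87 (adjusted permutation p = 4e-05 for both, from the smallest p the permutations allow; r = 0.90 without 2 mice). Against the GABAergic mean, Cacna1d had r = 0.41 (adjusted permutation p = 0.0406) and rho = 0.22 (0.286), and Scn2a r = 0.41 (0.0364) and rho = 0.19 (0.324). Both fell to r = 0.20 without the 2 mice farthest out, so they rest on those mice. Cacna1a 1430408_at had r = 0.48 and rho = 0.52 with the GABAergic mean (adjusted permutation p = 0.00208 and 0.00243; r = 0.39 without 2 mice). With the thalamic mean, Cacna1d had r = -0.06 and rho = -0.13 (adjusted permutation p = 0.827 and 0.496; r = -0.15 without 2 mice) and Scn2a r = 0.0019 and rho = -0.04 (0.99 and 0.845; r = -0.05 without 2 mice).

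Further relations were seen among the probesets of the second time pattern. Cacnb4 1452089_at went with Cacna2d1 1449999_a_at (r = 0.81, rho = 0.80, adjusted permutation p = 4e-05 for both; r = 0.80 without 2 mice). Its relation to the other Cacnb4 probeset was r = 0.04 and rho = 0.01 (adjusted permutation p = 0.848 and 0.97; r = 0.01 without 2 mice). The 2 main probesets of Cacna1a had r = 0.38 and rho = 0.41 (adjusted permutation p = 0.02 and 0.022; r = 0.35 without 2 mice). Cacna1g and Cacng5 had r = 0.46 and 0.50 with the thalamic mean (adjusted permutation p = 0.0278 and 0.0125), but rho = 0.32 and 0.30 (0.0979 and 0.129), and r = 0.21 and 0.29 without the 2 mice farthest out, so these also rest on few mice.

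**Figure D5:**
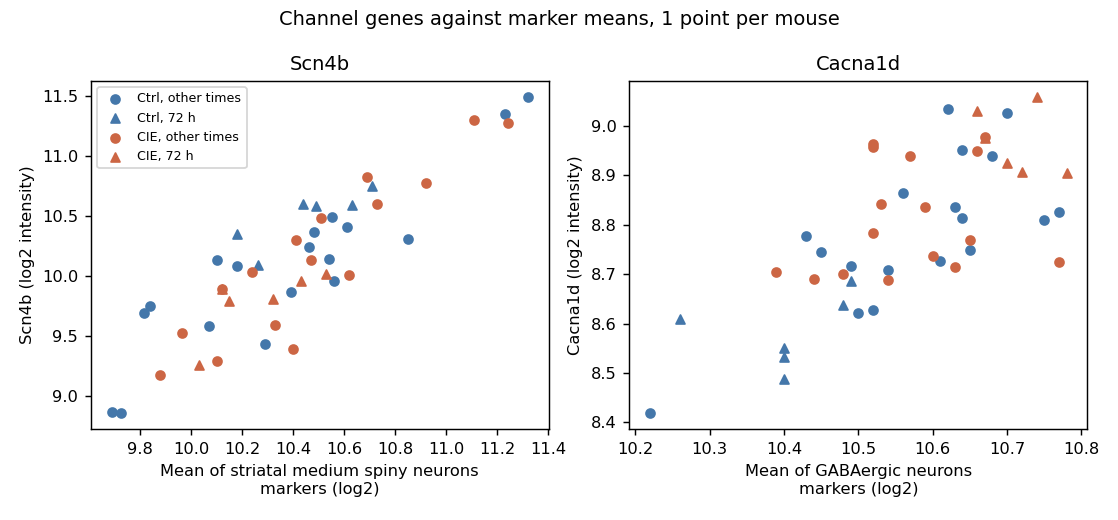
Log2 intensity of Scn4b (left, vertical axis) against the mean log2 of striatal medium spiny neuron markers, and of Cacna1d (right) against the mean of GABAergic markers, with 1 point per mouse, Ctrl in blue, CIE in orange and triangles for 72 h. Scn4b rises with the striatal mean (r = 0.92 within groups), and for Cacna1d the Ctrl and CIE triangles lie apart on both axes (GABAergic mean 10.26 to 10.49 and 10.66 to 10.78).

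Among genes that work beside these channels 3 calls were made, against the shares of all probesets already given (2.4% at 0 h and 0.433% at 72 h). Of 18 measured partners of sodium channels, such as ankyrins and fibroblast growth factor homologous factors, 1 was called in CIE against Ctrl. This was Nrcam, a cell adhesion molecule that gathers sodium channels at the axon initial segment and nodes, which had a difference of -0.21 at 0 h (SE 0.033, adjusted p = 3.22e-05). Of 23 partners of calcium channels limma called 0 at any time, with 1, 1, 11 and 0 at an unadjusted p under 0.05 at 0 h, 8 h, 72 h and 7 d, where 12.6% of all probesets were at 72 h. At 72 h 19 of these 23 had a higher CIE mean (median 0.11), against 49.8% of all probesets. The smallest adjusted p were those of Stx1a, at 0.325 (adjusted p = 0.0199), and Nrxn3, a presynaptic adhesion molecule, at 0.13 (adjusted p = 0.0232). The largest differences to either side were those of Gem, at 0.91 (adjusted p = 0.0514), and Stac, at -0.34 (adjusted p = 0.0759). Of 22 genes of calcium stores, entry and extrusion, Stim2, a calcium sensor of the endoplasmic reticulum, was higher at 0 h (0.27, adjusted p = 0.00661) and Atp2b4, a plasma membrane calcium pump, was higher at 72 h (0.54, adjusted p = 0.00158). At 72 h 17 of the 22 had a higher CIE mean, with a median of 0.10. The sodium channel partners did not share this, with 10 of 18 higher at 72 h and a median of 0.0275.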

How the data were processed

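The authors deposited log2 intensities per probeset of Affymetrix whole-genome mouse arrays. According to their methods, arrays hybridized together were background-corrected with RMA and quantile normalized, all arrays were then quantile normalized once more, and ComBat removed the effect of hybridization group; versions are not given in the sources used here. Such normalization would mask a common rise or fall of most genes. No label gives the batch of an array, so within-batch values could not be computed. The number of arrays limits the precision, and no depth applies.

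With all 46 arrays and 45037 probesets, 8 group means were estimated with limma 3.58.1 in R 4.3.3 (38 residual degrees of freedom), two-sided, with Benjamini-Hochberg adjustment within each test and a threshold of 0.01. Replicates are separate mice. Moderated F tests covered the 4 CIE effects, their change between times and each time course. The script was tested on simulated data. Each gene was represented by its probeset of highest mean.

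The channel genes, the 3 lists of partners (63 of 71 genes measured), the 11 lists of cell type markers (93 of 102) and the tests were chosen with earlier results of these data known. The rule for named genes took every gene with a called probeset and, in each subfamily, the 2 of smallest p and the 2 largest differences at each time. After values were seen this was narrowed to the largest differences of a subfamily, and levels of different genes were not ranked. The 8 fixed alternatives were moderation with an intensity trend, array weights, aligned medians, a filter at a mean log2 of 6, an adjusted p of 0.05, 2 residual components, the striatal marker mean and only the 2 groups compared, besides leaving out each mouse and averaging a gene's probesets. Covariates of thalamic and GABAergic marker means were added after seeing the data. Promoter sequences are from RefSeq (GRCm38.p6).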

Additional observations from a re-analysis of the deposited data

Results flagged for a closer look

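In Cacna1d (1427974_s_at) CIE 0 h replicate 17 stood apart from its group, at 8.96 against 8.69 to 8.78 in the 5 other mice, a gap of 0.646 of the whole range. It was the single such mouse in 24 groups tested over the 3 probesets called in a CIE comparison, and chance alone would set apart about 1 in 20 groups.

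The CIE effect on Cacna1d differed between times (adjusted p = 0.00435, limma F test), being largest at 72 h.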

How the results depend on the processing

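The direction of the CIE difference of Cacna1a at 0 h and of Cacna1d and Scn2a at 72 h was the same under every alternative run, including all 46 fits without 1 mouse, from -0.30 to -0.11, 0.24 to 0.40 and 0.13 to 0.24. The number of called channel probesets moved as follows, and the cause was not tested except where named. With array weights there were 0 at 0 h (13 at an unadjusted limma p under 0.05), 9 at 72 h, 10 over the 4 effects, 3 for the change of effect, 20 in the Ctrl and 11 in the CIE time course. At an adjusted p of 0.05 these counts were 2, 9, 8, 3, 26 and 10. With 2 residual components as covariates, which have no group difference by construction and so only lower the spread, they were 2, 9, 12, 3, 29 and 16, and 1 at 7 d. With only the 2 groups compared there were 0 at 0 h and 5 at 72 h, and with the striatal covariate 6 at 72 h, 7 over the 4 effects and 2 for the change of effect. The filter on low values gave 2 for the change of effect. With the thalamic covariate, chosen like the GABAergic one after seeing the data, there were 0 at 72 h, 0 for the change of effect and 3 in the CIE time course, and with the GABAergic covariate 0, 0 and 3, with 1 over the 4 effects. Without 1 mouse the counts ran from 0 to 2 at 0 h, 1 to 5 at 72 h, 2 to 6 over the 4 effects, 0 to 2 for the change of effect, 8 to 20 in the Ctrl and 1 to 6 in the CIE time course, and stayed at 0 at 8 h and 7 d. Over all probesets the called numbers moved too, from 1079 to 287 at 0 h with 2 groups in the fit and from 195 to 1151 at 72 h with array weights. The counts of channel probesets are given here without the share of all probesets under each setting. Whether channel probesets moved more than others was not tested. No paired analysis was possible because replicate numbers are unique to a mouse and shared by no groups.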
